A study of Mus musculus with 9 samples.

Results

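Meningeal fibroblasts from segment T of the mouse spinal cord were compared with those from segment C across all genes. The comparison takes 3 libraries titled T and 3 titled C, 6 of the 9 libraries in the series, chosen by their titles. The series was made to ask how fibroblasts differ between segments, and the letters C, T and L are not spelled out in the labels. In C as in T, the labels describe primary cells taken from the spinal meninges and lysed without any treatment. Genotype, strain, age and sex are not given there. Whether the 3 libraries of a segment stem from different animals is not in the labels, and the p-values therefore rest on a spread that may be technical. The third segment, L, is used here for the spread and as a level set beside C and T.

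Meningeal fibroblasts build the dura, arachnoid and pia, the membranes around the cord. They lay down collagen and basement membrane, and cells of the arachnoid form a barrier with tight junctions, gap junctions and transporters. Fibroblasts of the meninges also release retinoic acid, BMPs, chemokines and growth factors toward the nervous tissue, and they can add to the scar after injury. Many keep a record of body position from the embryo in their transcription factors.

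Total estimated counts ran from 16555231 in T replicate 1 to 25204301 in C replicate 3. Between 12095 and 12305 genes in each library of C and T reached 1 TPM, a transcript level corrected for length and library size. Means below are given ± SD over the 3 libraries of a segment. Over the tested genes, replicate libraries lay 0.261 to 0.365 log2 units apart (root mean square), while libraries of C lay 0.840 to 0.889 from those of T. T replicates 1 and 2 were the farthest apart within a segment. The first principal component held 69.2% of the variance and separated C from both T and L, and the second held 15.8% and separated T from L. Among fibroblast markers, Col1a2, a chain of type I collagen, stood at 1152, 1125 and 1076 TPM in C and 1187, 1108 and 1078 TPM in T, while Dcn (decorin) stood at 49.6, 50.1 and 54.6 TPM in C and 63.0, 89.7 and 78.4 TPM in T. Lum (lumican), another common fibroblast marker, was low in both, at 3.12, 2.80 and 3.02 TPM in C and 4.46, 6.48 and 4.72 TPM in T. The 15 fibroblast markers moved both ways, with 6 higher and 7 lower in T. Their median of -0.12 turned to 0.01 on log2(TPM + 1). Several defining markers of other cells were at or near 0 in C and T: Cd3e (T cells), Cldn5 (endothelium), Mog (oligodendrocytes) and Tyr (melanocytes) were listed at 0. Pecam1 (endothelium) reached at most 0.395 TPM, Ptprc (leukocytes) 0.718, Epcam (epithelium) 0.205 and Rbfox3 (neurons) 0.1. Others were present, among them Cdh5 (VE-cadherin of endothelium) at 83.6 ± 5.23 TPM in C and 43.1 ± 0.464 TPM in T, and the glial genes Gfap and Sox10, given below. In bulk RNA, fewer cells of a type and less RNA per cell cannot be told apart, which holds for every marker below.

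About as many genes were higher as lower in T, and most differences were small. By edgeR's quasi-likelihood test with Benjamini-Hochberg adjustment at 0.05, 6409 of 12553 tested genes (51.1%) differed, 3240 of them higher in T (25.8%) and 3169 lower (25.2%). Fold changes come from the counts and so need not equal the ratio of TPM. These shares are the background for each gene group below, and the median log2 change over all tested genes was 0.02. TPM values of the 2 segments did not overlap for 7288 genes (58.1%). Of the genes called, 3381 (52.8%) changed by less than 1.5-fold, against a median SE of 0.10 on the log2 scale. At 2-fold or more, 743 genes were higher in T (5.92%) and 906 lower (7.22%). At 4-fold or more, 205 were higher and 343 lower, at 8-fold 73 and 122, and at 16-fold 36 and 43. Genes at least 2-fold higher in T took 1.27 ± 0.0277% of all TPM in C and 4.31 ± 0.126% in T, and those at least 2-fold lower took 6.20 ± 0.0928% in C and 2.25 ± 0.0406% in T (SD, n = 3 per segment). The split between directions moved with the scale: limma on log2(TPM + 1) called 4110 genes higher and 2214 lower, with a median of 0.13, and library totals gave 3892 and 2678. With each library centred on its median, 2491 were higher and 3313 lower. The plot of change against level labels some genes of large change or high level.

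**Figure D1:**
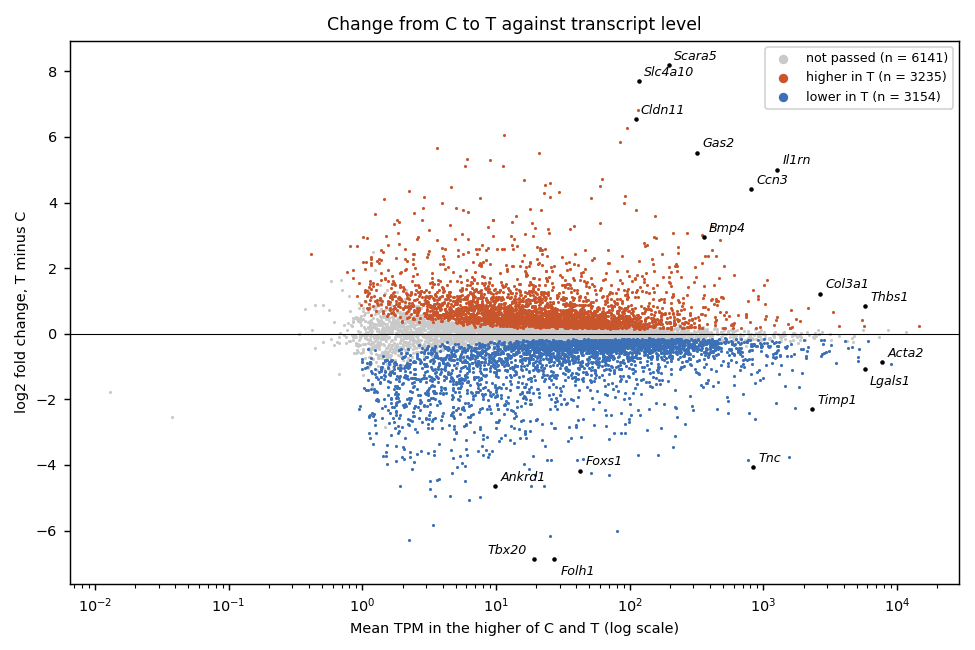
Log2 fold change of T over C (y axis) against the mean TPM in the higher of the 2 segments (x axis, log scale), 1 point per tested gene, coloured by the call at an adjusted p of 0.05. Among the labelled genes, Scara5, Slc4a10 and Cldn11 lie highest and Tbx20 and Folh1 lowest. The 23 genes with 3 or fewer counts in a segment are left out.

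The balance of the calls depended on the transcript level. Of the 602 genes with a mean of at least 300 TPM in the higher segment, 102 were higher in T (16.9%) and 296 lower (49.2%), with a median log2 change of -0.19. Of the 1402 genes from 100 to 300 TPM, 274 were higher and 543 lower (median -0.10). Among 3462 genes from 10 to 30 TPM the balance was the other way, with 1029 higher (29.7%) and 635 lower (18.3%, median 0.08), and among 2203 genes from 3 to 10 TPM 676 were higher and 507 lower (median 0.11). Genes from 30 to 100 TPM were even, with 927 and 902.

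**Figure D2:**
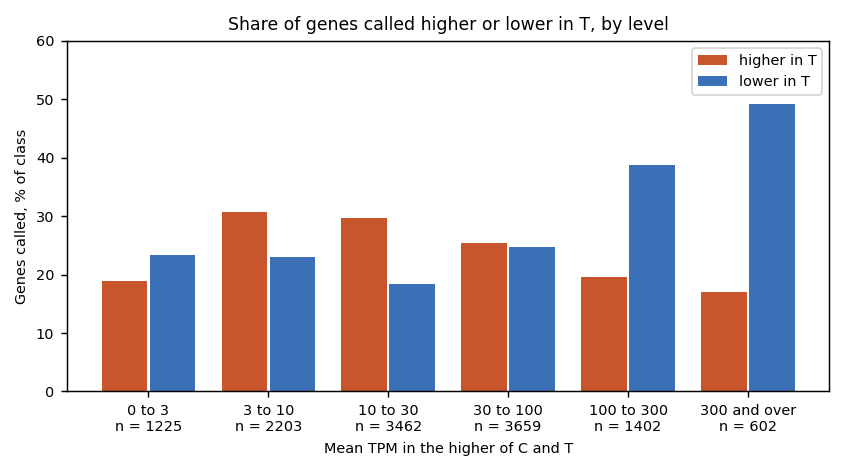
Share of tested genes called higher (orange) or lower (blue) in T, in % of each class of mean TPM, with the number of genes under each class. Above 100 TPM more genes were lower than higher, up to 49.2% against 16.9% in the top class, and between 3 and 30 TPM more were higher.

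Among transcripts with the largest falls in TPM were genes of iron storage, the cytoskeleton and matrix turnover. Ftl1, the light chain of the iron store ferritin, stood at 8807, 9771 and 8644 TPM in C and 5964, 4658 and 5092 TPM in T, a 1.89-fold fall. Lgals1, which encodes the sugar-binding lectin galectin-1, was at 5561, 5944 and 5644 TPM in C and 3292, 2812 and 2857 TPM in T, 2.08-fold lower. Every T library lay below every C library for both genes, as the rule for naming them required. Vim (vimentin) fell 1.62-fold, Gapdh (a glycolytic enzyme) 1.86-fold and Prss23 (a secreted serine protease) 3.09-fold, the last from 1844 ± 118 to 642 ± 56.8 TPM. In the other direction, Thbs1, the matricellular protein thrombospondin-1, was at 3149.9, 2793 and 2857 TPM in C and 5525, 6034 and 5711 TPM in T, 1.80-fold higher. Tmsb4x (thymosin beta-4, which binds actin monomers) rose 1.35-fold, Akap12 (a kinase scaffold) 1.71-fold and Lox (lysyl oxidase, which crosslinks collagen) 1.59-fold, the last from 1934 ± 50.6 to 3337 ± 404 TPM. The mitochondrially encoded mt-Co1 rose 1.17-fold, a call that ended without C replicate 1 or 2 or T replicate 2 or 3.

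Several genes with the largest fold rises, among those of at least 10 TPM in the higher segment, were low in C. Gas2, a growth-arrest protein that binds the cytoskeleton, was at 5.49, 6.75 and 5.41 TPM in C and 278, 345 and 331 TPM in T, 45.7-fold higher (log2 5.51, SE 0.10). Il1rn, the natural antagonist of the interleukin-1 receptor, was at 35.9, 37.6 and 33.4 TPM in C and 1306, 1313 and 1177 TPM in T, 32.0-fold higher, and the L libraries had 547 ± 8.97 TPM. In both genes the lowest T library was many times the highest C library. Kng1 and Kng2, the kininogens from which kinins are cut, rose 113-fold and 57.0-fold to 115 ± 2.39 and 85.3 ± 1.49 TPM, and as near copies of each other they may share reads. Cxadr, a junctional receptor also used by coxsackie and adenoviruses, rose 26.1-fold to 61.9 ± 11.4 TPM. Tspan8, a tetraspanin, rose 66.9-fold, C1qtnf7, a C1q-like secreted protein, 24.4-fold, and Nalf2, a partner of the sodium leak channel, 25.8-fold. Myh1, a fast skeletal myosin heavy chain of a family of close copies, rose 34.6-fold to 11.4 ± 1.09 TPM. Agtr2, the type 2 angiotensin receptor, had 0 counts in all C libraries and was at 0, 0 and 0 TPM in C and 8.61, 13.3 and 12.4 TPM in T, which makes it at least 328-fold higher in T against a floor of 3 counts over C. Intervals and floors given here cover counting error only.

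Among the genes that fell farthest at this level, Tbx20, a T-box factor of heart development, was at 18.5, 18.5 and 20.8 TPM in C and 0.262, 0.306 and 0.435 TPM in T, 116-fold lower. Folh1, a surface peptidase that also frees folate, was at 24.8, 27.8 and 28.6 TPM in C and 0.278, 0.244 and 0.275 TPM in T, 116-fold lower. In both, the T libraries were close to 0. Klk8, a kallikrein protease, was at 74.8, 66.9 and 70.3 TPM in C and 4.82, 3.59 and 3.93 TPM in T, 19.6-fold lower. Galnt18, which is related to enzymes that start O-linked sugar chains, was at 49.8, 54.0 and 49.8 TPM in C and 3.04, 2.83 and 2.96 TPM in T, 19-fold lower. Nrn1 (neuritin, a small surface protein known for neurite growth) fell 25-fold, Upk1b (a uroplakin) 25.1-fold, Rgs8 (a regulator of G protein signalling) 19.8-fold and Cd53 (a tetraspanin best known from leukocytes) 14.4-fold, from 40.2 ± 1.97 to 3.05 ± 0.291 TPM. All C libraries exceeded all T libraries in each of these, as the rule for naming them required. Among 13 tested macrophage markers, a list without Cd53, 3 rose, Lyz2 and Cd68 among them, and 3 fell. Prl2c3 fell 63.9-fold from 80.0 ± 3.22 TPM and Gzme 72.2-fold from 25.6 ± 1.40 TPM, but both belong to families of near-identical copies and their values are uncertain. The values by library of 20 genes show how tightly replicates lay.

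**Figure D3:**
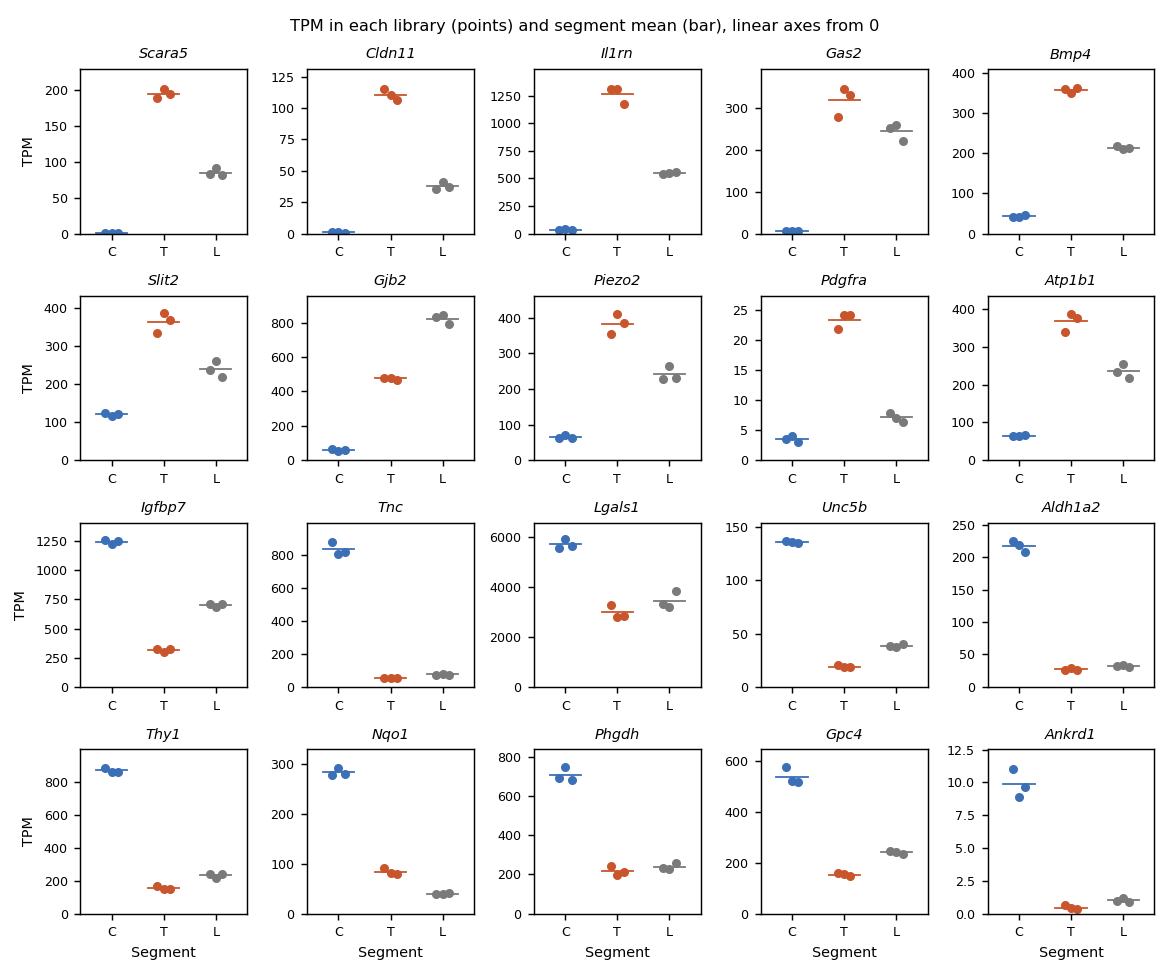
TPM (y axes, linear from 0) of 20 genes in each library of segments C, T and L (points) with the segment mean (bar). The 10 genes in the top rows lay higher in every T than in every C library and the 10 in the lower rows lower, with L between C and T for most and above T for Gjb2.

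Transcription factors as a class were more often higher than lower in T. Of 1061 tested genes with a transcription factor family in the deposited annotation, 351 rose and 161 fell (median log2 0.18), against 2889 and 3008 of the 11492 other genes (median 0.00). C2H2 zinc finger genes, the largest family, had 137 rises and 22 falls among 455 (median 0.22). With median centring these were 92 and 25, and without T replicate 1 they were 176 and 22. The counts of these classes were not matched for transcript level. Of all tested genes from 10 to 30 TPM, 29.7% rose and 18.3% fell. The bZIP family leaned the other way, with 6 rises and 17 falls among 43, but its median of -0.06 turned to 0.06 on log2(TPM + 1). In the same annotation, homeobox genes outside the Hox clusters had 12 rises and 18 falls among 45, with a median of -0.07 that turned to 0.01 on log2(TPM + 1). A wider list by gene symbol had 12 rises and 26 falls among 51 tested (median -0.34), and 18 fell at least 2-fold. Restricted to genes of at least 5 TPM, 9 members fell. Meox2, a mesodermal homeobox gene, was at 3.48, 4.11 and 3.59 TPM in C and 18.7, 23.7 and 23.4 TPM in T, 5.40-fold higher. Gbx2, which patterns the hindbrain boundary in the embryo, fell 6.92-fold from 4.42 ± 0.524 TPM, and Vax2 fell 5.28-fold.

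Forkhead factors, many of them regulators of mesenchyme, gave 14 rises and 5 falls among 26 tested (median 0.33). Foxc2, needed for meningeal and vessel development, was at 51.8, 53.5 and 50.8 TPM in C and 157, 142 and 149 TPM in T, 2.63-fold higher, and Foxp1 rose 2.35-fold to 140.1 ± 9.55 TPM. Foxs1, known from pericytes and neural crest, went the other way at 38.6, 44.5 and 44.2 TPM in C and 3.31, 2.37 and 2.06 TPM in T, 18.1-fold lower. Among Sox factors 3 rose and 7 fell of 10 (median -1.97), and those that fell 8-fold or more were the neural and glial members Sox8, Sox10, Sox11 and Sox21. Sox4 and Sox12 rose 1.44-fold and 1.66-fold. T-box factors gave no rise and 4 falls of 6, with Tbx20 116-fold, Tbx3 4.88-fold and Tbx2 4.65-fold lower. Without T replicate 1, 1 member was higher. In the Zic, Gata, Gli and Klf group 11 rose and 5 fell of 23 tested (median 0.15). Zic1, a marker of meningeal cells, was at 72.6, 68.1 and 72.3 TPM in C and 174, 195 and 190.2 TPM in T, 2.43-fold higher, Klf5 rose 4.47-fold and the Hedgehog effector Gli2 3.24-fold. Gata2 and Gata3 fell 13-fold and 15.5-fold. Among basic helix-loop-helix factors (10 rose and 14 fell of 36 tested), Heyl, a Notch target, fell 30.6-fold and Mycl 16.3-fold, while Ahrr, the repressor of the aryl hydrocarbon receptor, rose 5.87-fold to 21.2 ± 1.64 TPM. The mineralocorticoid receptor Nr3c2 rose 3.78-fold. The plot of gene lists sets these counts beside those of the groups below.

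**Figure D4:**
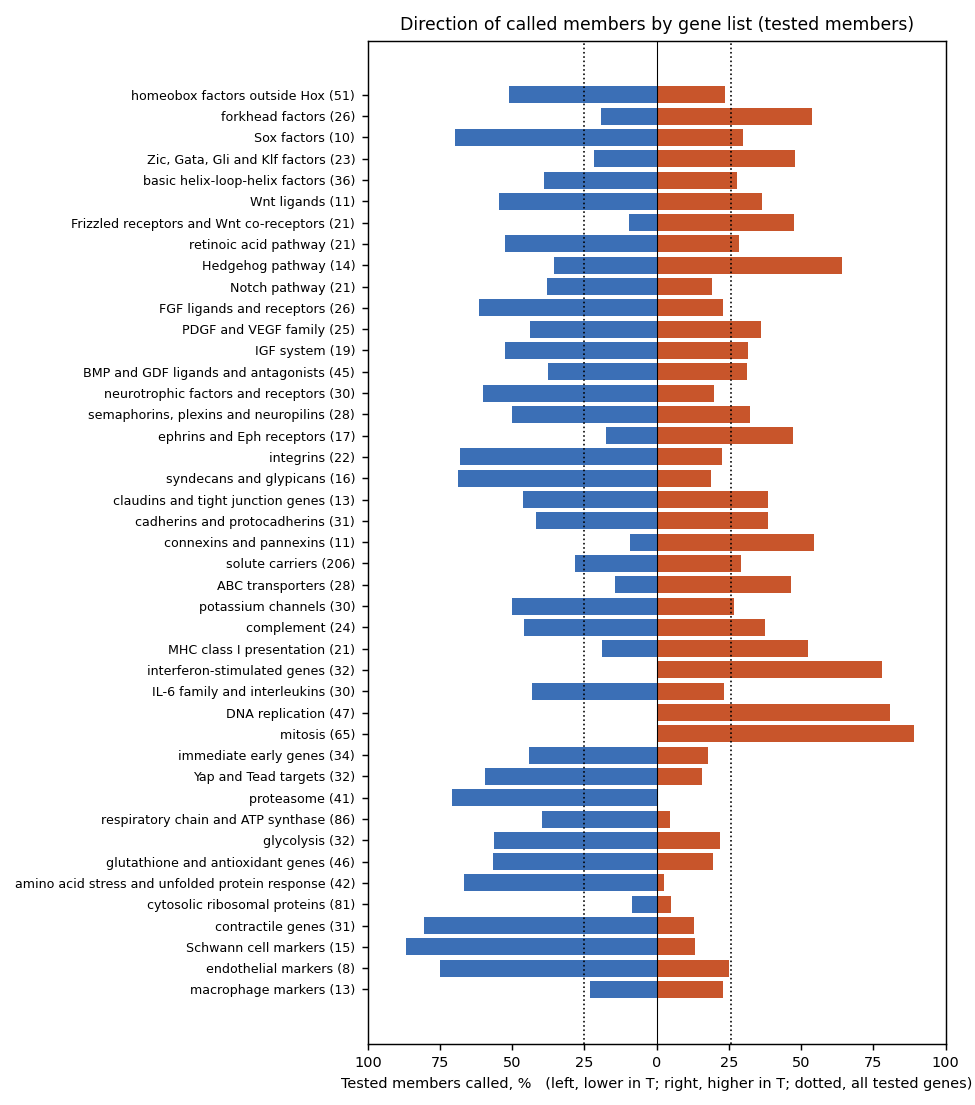
Share of the tested members of each gene list called higher (right, orange) or lower (left, blue) in T, in %, with the number tested in brackets and dotted lines at the shares over all tested genes (25.8% and 25.2%). Mitosis, DNA replication and interferon-stimulated genes had members called only higher, proteasome genes only lower (a few rose on other scales), and Sox, integrin and Schwann cell lists were mostly lower.

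Wnt ligands moved both ways and their receptors more often rose. Wnt proteins are secreted and act through Frizzled receptors with co-receptors. Among ligands, 4 rose and 6 fell of 11 tested. Wnt6, which is made by epithelia and arachnoid cells, was at 2.26, 3.08 and 2.05 TPM in C and 69.0, 55.1 and 56.2 TPM in T, 22.6-fold higher. Wnt5a, which mostly acts without beta-catenin, was at 47.2, 43.3 and 44.0 TPM in C and 17.8, 18.6 and 18.8 TPM in T, 2.56-fold lower. The low-level Wnt10a rose 17.9-fold to 2.92 ± 0.715 TPM, and Wnt2b and Wnt10b fell 12.6-fold and 6.86-fold. Of Frizzled receptors and co-receptors, 10 rose and 2 fell of 21 tested (median 0.29), with Fzd1 at 53.9, 50.7 and 52.8 TPM in C and 154, 161 and 165 TPM in T, 2.79-fold higher, and Fzd4 4.36-fold and the Wnt5a receptor Ror1 2.41-fold higher. The 2 that fell were Lgr6, 11.4-fold, and Ptk7, 1.16-fold, and the Ptk7 call ended when any 1 of 5 libraries was left out. Rspo2, a secreted amplifier of Wnt signals, rose 2.99-fold to 129 ± 11.9 TPM, the Wnt-binding inhibitor Wif1 rose 6.10-fold, and the inhibitor Apcdd1 fell 2.82-fold. Genes known as beta-catenin targets moved both ways (5 rose and 7 fell of 15 tested, with a median of -0.13 that turned to 0.01 on log2(TPM + 1)). Ccnd1 (cyclin D1) fell 2.42-fold from 608 ± 9.56 to 274 ± 6.64 TPM, and Lef1 8.18-fold.

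Genes of retinoic acid synthesis were lower in T. Of the genes that make, carry, degrade and read retinoic acid, 6 rose and 11 fell of 21 tested (median -0.26), 9 of the falls being at least 2-fold. Aldh1a2, the main retinoic acid synthesizing enzyme of the meninges, was at 225, 219 and 208 TPM in C and 25.6, 29.1 and 26.3 TPM in T, 8.75-fold lower (log2 -3.13, SE 0.07), and its relative Aldh1a3 fell 5.90-fold. Cyp26b1, which degrades retinoic acid, was at 207, 199.9 and 199 TPM in C and 164, 148 and 149 TPM in T, a smaller fall of 1.43-fold. The carrier Crabp1 fell 16.5-fold, while the retinol carrier Rbp4 rose 15.8-fold to 3.97 ± 0.563 TPM. In the Hedgehog pathway, 9 rose and 5 fell of 14 tested (median 0.40). The ligand Shh was low in C and near 0 in T, at 3.20, 3.12 and 3.74 TPM in C and 0.0490, 0.0840 and 0.0430 TPM in T, 56.7-fold lower. The co-receptor Gas1 rose 3.28-fold, the signal transducer Smo 1.26-fold and the ligand-releasing Disp1 1.39-fold, and Scube1, of a family that binds the ligand, fell 3.06-fold. Ptch1, another Hedgehog gene named after its values were seen, was at 8.51, 9.54 and 9.64 TPM in C. It was lower in T, at 4.51, 5.87 and 6.42 TPM.

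Growth factors divided by family. FGF ligands and receptors fell more often than they rose (6 rose and 16 fell of 26 tested, median -0.76), with Fgf5 at 26.2, 27.9 and 27.1 TPM in C and 2.85, 5.65 and 4.45 TPM in T, 7.36-fold lower, and the mesenchymal ligand Fgf10 3.39-fold lower. Neurotrophic factors and receptors, which sustain neurons and glia, gave 6 rises and 18 falls among 30 tested (median -0.86), and 14 falls were at least 2-fold. Ntf3 (neurotrophin-3) fell 14.7-fold from 1.78 ± 0.351 TPM, while Ntrk3, the receptor of Ntf3, rose 4.20-fold to 27.1 ± 1.06 TPM and the EGF receptor Egfr 2.23-fold. The summed level of the family was 909 to 932 TPM in C and 553 to 565 TPM in T. Erbb3 and Gfra3, receptors typical of Schwann cells, fell, and both are also counted among the Schwann cell markers below.

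In the PDGF and VEGF family counts were nearly even (9 rose and 11 fell of 25 tested, with a median of -0.08 that turned to 0.05 on log2(TPM + 1)), and single members moved far. Pgf (placental growth factor) was at 36.0, 33.9 and 32.8 TPM in C and 249, 217 and 228 TPM in T, 6.21-fold higher, and Pdgfra, the PDGF receptor of many fibroblasts, at 3.51, 4.06 and 3.04 TPM in C and 21.7, 24.1 and 24.2 TPM in T, 5.95-fold higher. The L libraries had 7.09 ± 0.731 TPM of Pdgfra, nearer to C. Pdgfrb, its partner receptor, fell 1.30-fold from 292 ± 6.37 TPM, Flt1 (a VEGF receptor) 15.5-fold and Angpt4 (an angiopoietin) 7.06-fold. In the IGF system 6 rose and 10 fell of 19 tested. The abundant binding protein Igfbp7 was at 1255, 1222 and 1246 TPM in C and 321, 302 and 322 TPM in T, 4.29-fold lower, Igfbp3 fell 5.52-fold, and Igfbp6 rose 2.17-fold. The ligand Igf2, an imprinted growth factor, rose 3.70-fold to 44.6 ± 0.551 TPM.

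BMP and GDF ligands moved both ways. Bmp4, a BMP ligand that patterns mesoderm and neural tissue, was at 42.2, 40.4 and 47.1 TPM in C and 361, 349.6 and 363 TPM in T, 7.64-fold higher (log2 2.93, SE 0.07, edgeR adjusted p = 7.73e-13). The lowest T library had more than every C library by a wide margin, and L stood at 214 ± 4.31 TPM. Gdf10 rose 7.87-fold to 13 ± 0.682 TPM and Fstl1, a secreted follistatin-like protein, 1.65-fold to 1609.7 ± 85.5 TPM. The BMP antagonist Grem1 (gremlin) was at 66.6, 74.4 and 87.1 TPM in C and 8.40, 11.8 and 10.4 TPM in T, 8.13-fold lower, and the ligands Bmp2 and Gdf6 fell 10.3-fold and 31.0-fold. As a family the counts were 14 rises and 17 falls among 45 tested, and their median of -0.02 turned to 0.10 on log2(TPM + 1).

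Axon guidance genes moved both ways. Semaphorins and their receptors gave 9 rises and 14 falls among 28 tested (median -0.25). Sema3d, a secreted repellent, was at 4.63, 4.78 and 6.05 TPM in C and 67.1, 109 and 95.5 TPM in T, 16-fold higher, and the receptor Plxna2 rose 4.14-fold to 197 ± 14.9 TPM. Sema7a, which is bound to the membrane, fell 6.16-fold and Plxnb3 5.72-fold. Slit2, a secreted repellent of growing axons, was at 124, 116 and 122 TPM in C and 335, 386 and 369 TPM in T, 2.74-fold higher, and the netrin receptor Neo1 (neogenin) rose 2.14-fold while Unc5b, another netrin receptor, was at 137, 136 and 135 TPM in C and 20.2, 18.3 and 18.5 TPM in T, 7.63-fold lower. Ephrins and Eph receptors gave 8 rises and 3 falls among 17 tested (median 0.22), led by the receptor Epha3, at 10.1, 9.61 and 9.87 TPM in C and 41.9, 61.6 and 59.6 TPM in T and 4.94-fold higher. The ligands Efnb1, Efna5 and Efnb2 rose 1.90-fold, 1.95-fold and 1.39-fold.

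Connexins form gap junctions that couple neighbouring cells. Of connexins and pannexins, 6 rose and 1 fell of 11 tested (median 0.23, and 5 and 2 with median centring), and their summed level was 214 to 250.4 TPM in C and 1049 to 1093 TPM in T. Gjb2 (connexin 26) was at 67.8, 54.7 and 57.8 TPM in C and 478, 480.0 and 469 TPM in T, 7.27-fold higher, and Gja1 (connexin 43) at 123, 102 and 104 TPM in C and 489, 531 and 499.6 TPM in T, 4.22-fold higher. Gjb5 and Gjb6 rose 4.66-fold and 10.1-fold, and Gja5, a connexin of arteries, fell 13.1-fold. In L, Gjb2 reached 824 ± 27.8 TPM, 0.81 log2 units above T (edgeR adjusted p = 1.5e-06).

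Tight junction genes moved both ways (5 rose and 6 fell of 13 tested, with a median of -0.03 that turned to 0.09 on log2(TPM + 1)). Cldn11, the claudin of the arachnoid barrier and of myelin, was at 1.40, 1.14 and 0.772 TPM in C and 115, 110.1 and 107 TPM in T, 93.3-fold higher, and Tjp1, a scaffold of tight junctions, rose 1.52-fold. F11r, Esam and Cgnl1, other junction proteins, fell 7.25-fold, 11.4-fold and 1.92-fold. Keratins and desmosome genes gave 7 rises and 2 falls among 12 tested (median 0.45), with Krt75 and Krt15 at 9.0 ± 0.366 and 5.83 ± 0.353 TPM in T from near 0 in C, and the plakophilins Pkp1 and Pkp2 6.48-fold and 3.68-fold lower. Cadherins and protocadherins outside the clusters gave 12 rises and 13 falls among 31 tested. Among these, Pcdh1 was at 42.7, 45.8 and 45.6 TPM in C and 3.42, 2.82 and 4.14 TPM in T, 14.2-fold lower, Pcdh20 fell 7.84-fold, and Cdh11, the main mesenchymal cadherin, rose 1.28-fold.

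Solute carriers as a whole were even (60 rose and 58 fell of 206 tested, and the direction of the majority changed with the scaling and without T replicate 1). Slc4a10, a bicarbonate transporter known from the choroid plexus, was at 0.493, 0.467 and 0.577 TPM in C and 88.4, 138 and 123 TPM in T, 206-fold higher, and L had 11.1 ± 2.16 TPM. Slc26a7, an anion exchanger, rose 22.1-fold to 4.63 ± 1.69 TPM. Car13, a carbonic anhydrase, was at 68.6, 61.7 and 63.8 TPM in C and 374, 449.7 and 423 TPM in T, 5.88-fold higher, and 4 of the other 5 tested carbonic anhydrases fell, Car6 the most at 22.5-fold. Atp1b1, a beta subunit of the sodium-potassium pump, was at 63.5, 63.9 and 66.6 TPM in C and 340.1, 387 and 378 TPM in T, 5.21-fold higher. Of the pump and proton ATPase genes, 5 rose and 15 fell of 29 tested, and 8 fell on log2(TPM + 1). ABC transporters gave 13 rises and 4 falls among 28 tested (median 0.19). Abcb1a and Abcb1b, which encode the drug efflux pump P-glycoprotein and resemble each other closely, rose 13.9-fold and 2.66-fold, and the efflux pump Abcg2 rose 1.40-fold to 146 ± 11.4 TPM. Aqp4 rose 2.40-fold and Aqp1, the other tested water channel, fell 1.60-fold. Gfap, like Aqp4 an astrocyte marker, was at 72.3, 82.0 and 71.4 TPM in C and 112, 102 and 105 TPM in T. The list of astrocyte and ependymal markers as a whole gave 7 rises and 6 falls among 14 tested, with a summed level of 5820.2 to 5900.0 TPM in C and 4287 to 4431 TPM in T, most of it Vim, and its part in the result was not tested.

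Ion channels and receptors for small signals also changed. Piezo2, a channel opened by touch and stretch, was at 61.1, 72.0 and 61.9 TPM in C and 354, 409.7 and 387 TPM in T, 5.14-fold higher, and its relative Piezo1 fell 1.23-fold from 165 ± 5.87 TPM. Potassium channels gave 8 rises and 15 falls among 30 tested (median -0.28), of which 6 fell when only genes of at least 5 TPM were kept. Kcnj2, an inward rectifier, was at 1.32, 0.891 and 0.961 TPM in C and 19.9, 25.1 and 23.1 TPM in T, 19.7-fold higher, and Kcnmb1, the smooth muscle subunit of the large-conductance calcium-activated channel, fell 22.4-fold. Among G protein receptors outside the adhesion class, 17 rose and 22 fell of 63 tested, and their median of -0.03 turned to 0.10 on log2(TPM + 1). In that class F2r, the thrombin receptor, was at 289.8, 289.8 and 304 TPM in C and 62.0, 76.3 and 69.9 TPM in T, 4.63-fold lower. Gpr4, a proton sensor, rose 17.8-fold, the adrenergic receptor Adra1b 4.61-fold to 117 ± 4.06 TPM, and Ackr3, which scavenges the chemokine Cxcl12, 3.58-fold. Cmklr2, a chemerin receptor, had 0 counts in T and was at least 70.0-fold lower against a floor of 3 counts over T.

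Peptide and lipid signals showed a like division. Npr3, the clearance receptor of natriuretic peptides, was at 64.5, 62.5 and 69.0 TPM in C and 196, 276 and 257 TPM in T, 3.30-fold higher, and Enpep, which cuts angiotensin II, rose 7.27-fold. The kinin receptor Bdkrb2 fell 3.68-fold while the kininogens rose. Neuropeptide and hormone precursors gave 1 rise and 10 falls among 14 tested (median -0.94), with Vgf (a secretory granule protein of neurons) 15.4-fold lower, Stc2 (stanniocalcin-2) 8.98-fold lower, and Adm (adrenomedullin, a vessel-widening peptide) at 133, 133 and 120.5 TPM in C and 63.0, 72.8 and 74.4 TPM in T, 2.01-fold lower. Igf1 was the exception, 1.52-fold higher. Ptgs1 and Ptgs2, the cyclooxygenases that start prostaglandin synthesis, fell 2.72-fold and 3.67-fold, from 68.3 ± 6.58 to 20.3 ± 3.45 TPM for Ptgs2. Ptgdr, a prostaglandin D2 receptor, had 1 count over the C libraries, and its ratio of counts was 405.5 (95% counting interval 72.3 to 16060) at 4.91 ± 0.0901 TPM in T.

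Integrins, the receptors that bind cells to matrix, gave 5 rises and 15 falls among 22 tested (median -0.48). Itga8 was at 68.1, 64.0 and 66.9 TPM in C and 8.54, 12.1 and 10.2 TPM in T, 7.03-fold lower, and the laminin receptor chain Itga7 fell 7.12-fold, while Itgb4 and Itgb8 rose 2.49-fold and 2.92-fold. Cell surface proteoglycans gave 3 rises and 11 falls among 16 tested (median -0.61). Gpc4, a glypican, was at 575, 521 and 515 TPM in C and 157, 155 and 146 TPM in T, 3.83-fold lower, and Cd44, the hyaluronan receptor, at 576, 526 and 523 TPM in C and 137, 149 and 140.5 TPM in T, 4.12-fold lower. Among glypicans that moved against them, Gpc6 was at 74.5, 67.4 and 71.3 TPM in C and 327, 373 and 342 TPM in T, 4.42-fold higher, and Gpc3 rose 2.17-fold. Thy1, a surface marker of fibroblasts and neurons, was at 887, 862 and 863 TPM in C and 169, 148 and 150.1 TPM in T, 6.03-fold lower.

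Contractile genes were mostly lower in T. Smooth muscle actin, myosin and their regulators give fibroblasts tension, and their genes share binding sites for serum response factor. Of contractile genes, 4 rose and 25 fell of 31 tested (median -0.47), with a summed level of 33031 to 33796 TPM in C and 24129 to 25048 TPM in T and 28218 to 29423 TPM in L. Tagln (transgelin, an actin-binding protein) was at 5082, 5337 and 4982 TPM in C and 3312, 2952 and 3079 TPM in T, 1.79-fold lower, and Acta2 at 7770.3, 7853 and 7729 TPM in C and 5051, 4479.5 and 4699 TPM in T, 1.82-fold lower. Myocd, the co-activator of smooth muscle genes, fell 4.75-fold from 2.43 ± 0.392 TPM. The list of Yap and Tead targets, of the stretch-sensing Hippo pathway, also holds pathway members such as Yap1, Wwtr1 and Tead3. It gave 5 rises and 19 falls among 32 tested (median -0.27). Its summed level overlapped between segments, at 5596 to 5810 TPM in C and 5563.5 to 5641 TPM in T. Ankrd1, a classic target, was at 11.1, 8.90 and 9.62 TPM in C and 0.623, 0.394 and 0.338 TPM in T, 25.2-fold lower, but Ccn2, another, did not pass the test at 2219, 2137 and 2136 TPM in C and 2636, 2519.9 and 2511 TPM in T. Of 10 tested mural markers, 8 fell, 5 of them at least 2-fold, and 1 rose at least 2-fold. The summed level of the whole mural list was 13021 to 13516 TPM in C and 7535 to 8468 TPM in T, most of it Acta2 and Tagln. The part of the mural markers in the contractile result was not tested.

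The CArG box, the motif bound by serum response factor, was searched on both strands in 250 bases before the start of each gene, in RefSeq promoters of GRCm38.p6. It was found in 6 of 25 contractile genes with a promoter entry (24%) and in 1.44% of 9779 tested genes with one. Among these 6, Srf, which encodes serum response factor itself, rose (log2 0.26), while Cnn2, Ldb3, Myl6, Myl9 and Vcl fell. Shown here, chosen for their motif after the values were seen, are promoters of genes that fell, Cnn2 (calponin 2, 950.4, 976 and 945 TPM in C and 874, 814 and 852 TPM in T) and Myl6 (a myosin light chain, 2811, 2923 and 2822 TPM in C and 2878, 2593 and 2626 TPM in T), and each stretch holds 1 match, in capitals. They fell 1.23-fold and 1.14-fold, and the TPM values of Myl6 overlapped between segments. The Cnn2 stretch is chr10:79988510-79988569 on the plus strand and the Myl6 stretch chr10:128493040-128493099 on the minus strand, both 90 to 31 bases before the start, 5′ to 3′ along the gene.
Cnn2: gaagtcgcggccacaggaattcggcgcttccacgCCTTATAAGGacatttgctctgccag
Myl6: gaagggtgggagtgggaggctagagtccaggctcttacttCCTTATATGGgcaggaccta

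Most cell division genes were higher in T. Of 65 mitosis genes, 58 rose and none fell (median log2 0.87), 23 of them at least 2-fold, and of 47 DNA replication genes 38 rose and none fell (median 0.60). Mki67, a common marker of dividing cells named here after its values were seen, did not pass, at 3.48, 5.23 and 7.93 TPM in C and 3.96, 7.47 and 7.15 TPM in T, and its libraries overlapped. Pbk, a mitotic kinase, was at 6.30, 6.67 and 7.08 TPM in C and 22.8, 25.8 and 22.2 TPM in T, 3.23-fold higher, and Cdc20, which activates the anaphase-promoting complex, at 41.3, 40.2 and 38.1 TPM in C and 85.2, 77.3 and 78.7 TPM in T, 1.86-fold higher. Cdk1, the kinase that drives entry into mitosis, rose 1.55-fold, the spindle-associated Ckap2 2.51-fold and the phosphatase Cdc25b 2.38-fold. The summed level of mitosis genes was 741 to 795 TPM in C and 1356 to 1554 TPM in T, and 1716 to 1857 TPM in L. Replication genes rose with Mcm10 and Cdc6 (helicase loading) 2.65-fold and 2.50-fold higher, Rrm1 (nucleotide reduction) at 108 ± 4.70 in C and 203 ± 10.3 TPM in T, and Pcna (the polymerase clamp) 1.31-fold higher. Within T, replicate 1 had the lowest sum of both lists. Cell cycle brakes moved both ways (8 rose and 13 fell of 38 tested, but 11 and 8 on log2(TPM + 1)). Cdkn2a, which encodes the inhibitors p16 and p19Arf, was at 123, 136 and 119 TPM in C and 54.8, 44.9 and 53.4 TPM in T, 2.62-fold lower, and the p53 target Cdkn1a did not pass at 951, 999 and 918 TPM in C and 965, 839 and 902 TPM in T. Replication-dependent histones gave 1 rise and 15 falls among 32 tested. They form families of near-identical genes whose reads may be split, and 7 fell when only genes of at least 5 TPM were kept.

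The CHR element TTTGAA, a short motif of promoters active late in the cell cycle, was found on either strand in 18 of 55 mitosis genes with a promoter entry (32.7%) and in 12.7% of 9779 tested genes with one, in the same windows. Cdc20, Prc1 and Ncapg were chosen after the values were seen, because the motif lies within 60 bases of the start in each, on the gene's strand and in capitals. Prc1 (a spindle midzone protein) was at 19.3, 19.2 and 22.2 TPM in C and 40.2, 53.6 and 47.8 TPM in T and Ncapg (a condensin subunit) at 2.77, 3.63 and 3.07 TPM in C and 4.93, 6.27 and 6.70 TPM in T, 2.06-fold and 1.74-fold higher. The stretches are chr4:118437344-118437403 on the minus strand for Cdc20, chr7:80294416-80294475 on the plus strand for Prc1 and chr5:45669865-45669924 on the plus strand for Ncapg. They are RefSeq sequence of GRCm38.p6.
Cdc20: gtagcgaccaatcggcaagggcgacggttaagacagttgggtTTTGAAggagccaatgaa
Prc1: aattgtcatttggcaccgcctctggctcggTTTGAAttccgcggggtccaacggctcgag
Ncapg: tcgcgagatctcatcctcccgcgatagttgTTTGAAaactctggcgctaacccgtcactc

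Interferon-stimulated genes were higher in T, but at low to moderate levels. Of 32 tested, 25 rose and none fell (median 0.71), with a summed level of 615 to 633 TPM in C and 929.8 to 979 TPM in T and 1054 to 1135 TPM in L. Ifi27 was the most abundant, at 153, 175 and 165 TPM in C and 294, 261 and 294 TPM in T and 1.54-fold higher. Herc6, a ubiquitin ligase, rose 3.12-fold from 1.77 ± 0.303 TPM, and Ifit1, which binds foreign RNA, 2.74-fold from 2.88 ± 0.387 TPM. Irgm1 did not pass at 170.5, 162 and 163 TPM in C and 168, 194 and 180.0 TPM in T. MHC class I presentation gave 11 rises and 4 falls among 21 tested (median 0.42), with Tapbp (tapasin, which loads peptides) at 54.2, 52.9 and 53.3 TPM in C and 144, 119 and 134 TPM in T, 2.42-fold higher. The H2 genes on this list are near copies of each other, so H2-T23 at 2.47-fold and H2-M3 at 2.01-fold higher are uncertain, and the chaperones Calr and Pdia3 fell 1.30-fold and 1.40-fold.

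Cytokines and chemokines fell more often than they rose. The list of interleukins and IL-6 family genes gave 7 rises and 13 falls among 30 tested (median -0.22). Its summed level went the other way, at 1530 to 1561 TPM in C and 2496 to 2689.5 TPM in T. Il6 was at 7.83, 8.19 and 10.0 TPM in C and 1.31, 0.288 and 0.376 TPM in T, 13.6-fold lower, and Lif at 6.26, 5.96 and 5.78 TPM in C and 0.957, 1.26 and 0.780 TPM in T, 6.80-fold lower, while Il16, a chemoattractant of CD4 cells, rose 12-fold to 14.1 ± 1.41 TPM. Of 10 tested chemokines 5 fell and 1 rose, with the monocyte attractants Ccl2 and Ccl7 4.67-fold and 3.97-fold lower from 5.63 ± 0.832 and 6.76 ± 0.0972 TPM. Complement genes moved both ways (9 rose and 11 fell of 24 tested, and 10 and 9 on log2(TPM + 1)), with C4b 4.27-fold higher.

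Protein turnover, stress and antioxidant genes fell more often than they rose. Of 41 proteasome genes, 29 fell and none rose (median -0.29), none by 2-fold. On log2(TPM + 1), 18 fell and 2 rose, and 1 or 2 rose under some other settings. Psmd8, a subunit of the regulatory cap, was at 448, 458 and 428 TPM in C and 337, 283 and 315 TPM in T, 1.55-fold lower. Amino acid stress and unfolded protein response genes gave 1 rise and 28 falls among 42 tested (median -0.35). Phgdh, the first enzyme of serine synthesis, was at 694, 749.8 and 685 TPM in C and 243, 197 and 214 TPM in T, 3.57-fold lower, Asns (asparagine synthetase) fell 2.78-fold and the stress factor Trib3 2.98-fold. Glutathione and antioxidant genes gave 9 rises and 26 falls among 46 tested (median -0.43) and a summed level of 9159 to 9406 TPM in C and 7007 to 7499 TPM in T. Nqo1, a quinone reductase and target of the factor Nrf2, was at 278, 292 and 280.0 TPM in C and 91.0, 80.8 and 78.7 TPM in T, 3.70-fold lower. Gsto1 (a glutathione transferase) fell 4.69-fold from 219 ± 2.62 TPM and Prdx1 (a peroxide reductase) 1.60-fold, while Gstt1 rose 2.79-fold.

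Glycolysis genes gave 7 rises and 18 falls among 32 tested (median -0.26), with Hk2 (hexokinase 2) 3.48-fold and the glucose transporter Slc2a3 3.67-fold lower. Of the lactate transporters, Slc16a3 was at 20.1, 23.2 and 22.8 TPM in C and 2.62, 2.12 and 2.05 TPM in T, 9.34-fold lower, and Slc16a1 rose 2.80-fold to 35.5 ± 3.04 TPM. Ldha (lactate dehydrogenase) did not pass at 1556, 1663 and 1542 TPM in C and 1824, 1665 and 1697 TPM in T. Of 86 respiratory chain genes 34 fell and 4 rose, none by 2-fold, and the falls were 18 without T replicate 3, 20 without T replicate 2, 21 without C replicate 2 and 22 without C replicate 1. Without T replicate 1, 49 of these genes fell and 2 rose, and on log2(TPM + 1) 16 fell and 9 rose. Cytosolic ribosomal protein genes showed 7 falls and 4 rises among 81, but 33 falls without T replicate 1, which had the highest sum of this list at 102970 TPM against 89281 and 94271 in the other T libraries. On log2(TPM + 1) this list turned, with 1 fall and 10 rises, and its median went from -0.07 to 0.05. Plin2, which coats lipid droplets, was at 384, 403 and 369 TPM in C and 169.6, 152 and 154 TPM in T, 2.65-fold lower, and Cd36, a fatty acid receptor, rose 5.76-fold to 3.14 ± 0.838 TPM. Scara5 (a ferritin receptor) was at 0.601, 0.592 and 0.642 TPM in C and 189, 202 and 195 TPM in T, 289.7-fold higher, against the fall of Ftl1, and Cp (ceruloplasmin, an iron oxidase) fell 3.98-fold from 90.5 ± 7.73 TPM.

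Of 18 tested tendon and ligament genes, 10 rose and 4 fell (median 0.55). Ogn (osteoglycin, a small proteoglycan) was at 13.7, 18.1 and 21.4 TPM in C and 111, 177 and 168 TPM in T, 7.80-fold higher, Omd (osteomodulin) at 0.806, 1.40 and 2.05 TPM in C and 16.6, 25.5 and 23.6 TPM in T, 13.7-fold higher, and Epyc (epiphycan) rose 12.8-fold. The tendon factor Mkx fell 3.52-fold. Among imprinted genes counts changed direction with the scale (9 rose and 11 fell of 29 tested, and 11 and 8 on log2(TPM + 1)), while Plagl1, an imprinted zinc finger factor, rose 3.95-fold to 35.9 ± 6.80 TPM. Immediate early genes gave 6 rises and 15 falls among 34 tested (median -0.09, 0.04 on log2(TPM + 1)), with Fosl1 5.42-fold and Atf3 3.25-fold lower, and Egr2 and Egr3 2.52-fold and 4.17-fold higher.

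**Figure D5:**
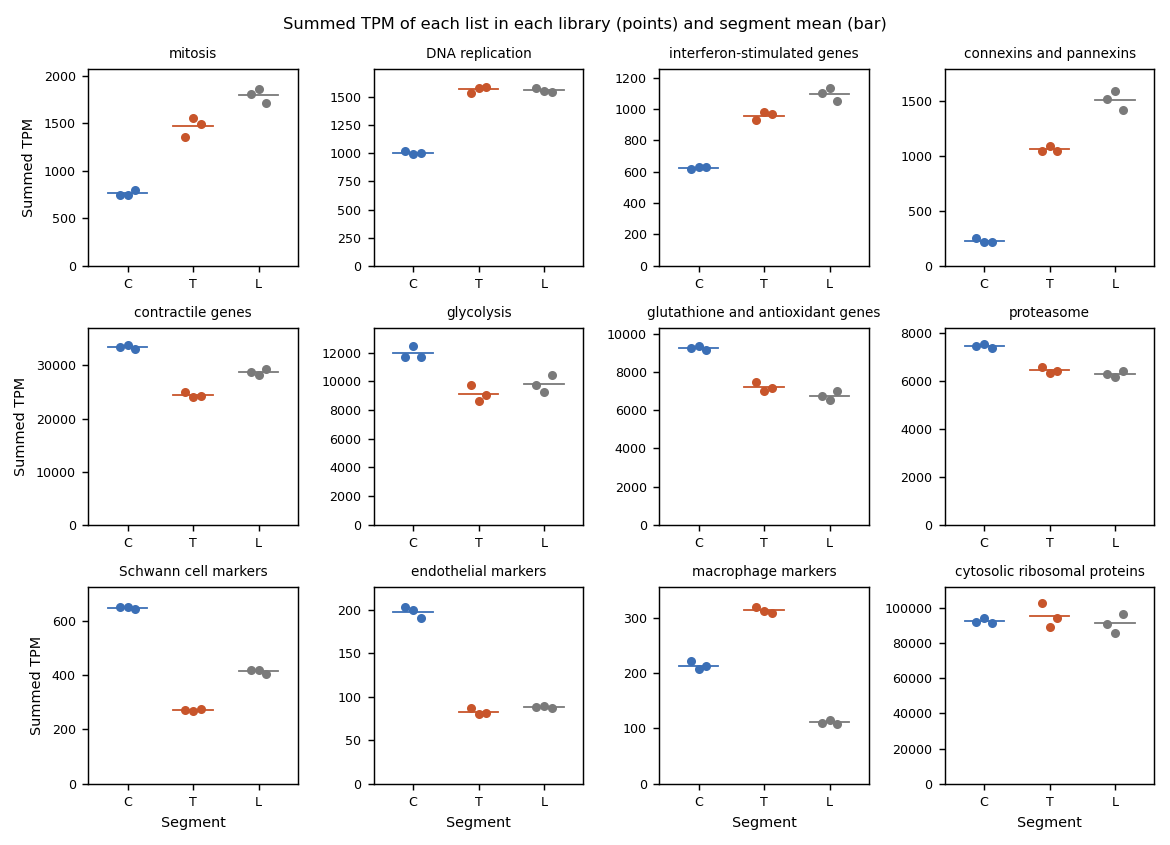
Summed TPM (y axes, linear from 0) of 12 gene lists in each library of C, T and L (points) with the segment mean (bar). Mitosis, DNA replication, interferon-stimulated and connexin genes lay higher in every T than in every C library, contractile, glycolysis, antioxidant, proteasome, Schwann cell and endothelial lists lower, and ribosomal protein genes overlapped.

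Markers of other cell types moved beside these groups. Schwann cell markers gave 2 rises and 13 falls among 15 tested (median -2.69), with a summed level of 644 to 653 TPM in C and 269 to 277 TPM in T and 404 to 421 TPM in L. Most of the sum came from Pmp22 and Ncam1, at 179 ± 4.30 and 157 ± 4.97 TPM in C. Endothelial markers gave 2 rises and 6 falls among 8 tested and summed to 190.3 to 203 TPM in C and 79.6 to 87.0 TPM in T, and Cldn5 was listed at 0. Of 6 neuronal markers, 2 rose and 4 fell. Stmn2 was at 165, 157 and 163 TPM in C and 13, 13.5 and 14.1 TPM in T, 13-fold lower, and Tubb3 fell 9.31-fold, while Rbfox3 was at or near 0. Macrophage markers gave 3 rises and 3 falls among 13 tested and summed to 207 to 222 TPM in C and 309.7 to 319 TPM in T (median 0.12, -0.07 with median centring), most of it Lyz2 at 137, 121 and 126 TPM in C and 230.2, 228 and 226 TPM in T, and Ptprc stayed near 0. The part of any of these lists in the results above was not tested.

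Genes on the Y chromosome were detected in both segments and were higher in T. Eif2s3y was at 12.1, 13.4 and 16.8 TPM in C and 26.3, 35.5 and 36.7 TPM in T, 2.13-fold higher, Kdm5d at 2.23, 2.25 and 2.69 TPM in C and 6.03, 7.65 and 7.43 TPM in T, 2.6-fold higher, and Uty at 2.53, 2.42 and 4.39 TPM in C and 4.59, 8.03 and 8.35 TPM in T, 2.17-fold higher. C and T did not overlap for any of these 3 genes. Ddx3y rose 1.54-fold, but its libraries overlapped and the call ended when any 1 of 4 libraries was left out. The X-linked partner Eif2s3x fell 1.16-fold, a call that also ended when any 1 of 4 libraries was left out. A transcript that would mark female cells was not analysed here, and the part of this difference in the other results was not tested.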

How the data were processed

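RNA of 9 libraries was sequenced after a total RNA preparation that keeps the strand, per the labels' protocols. For each gene and library the authors deposited a TPM and an estimated count. Per the submitters' processing notes, the tools include HISAT2 2.2.1, StringTie 2.1.4 and Trimmomatic 0.39, and the builds GRCh38 and GRCm39 are both named, with no role given. Of the estimated counts, 92.7% were whole, and all were rounded. Genes with at least 1 TPM in 3 of 9 libraries were tested (12553 of 22013 entries, 112 of which had no symbol) with edgeR 4.0.16 in R 4.3.3, by the quasi-likelihood test with TMM scaling, segment as the only term and all 9 libraries sharing the spread. p-values were adjusted by Benjamini-Hochberg over all tested genes, at 0.05. The test was checked on simulated counts. The genes named are, per direction and with no overlap between segments, those of the largest fold or TPM difference at 10 TPM or more, and in each list those of the largest change, against the majority, or of the highest level. Not every gene this rule names is reported here. The rule and the lists were chosen with earlier results of these data known. Alternatives were limma 3.58.1 on log2(TPM + 1), DESeq2 1.42.0, other scalings and filters, and leaving out each library. Promoters are RefSeq sequence of GRCm38.p6, and no coordinates of the authors' genes were used.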

Additional observations from a re-analysis of the deposited data

How the results depend on the processing

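The count of genes differing between T and C, 6409, ran from 5451 without T replicate 3 to 6958 without T replicate 1, and stayed within 1.5 times under every other setting tried. DESeq2 gave 6294, and a fit of the 6 C and T libraries alone 6305. The counts at 2-fold or more depended on the filter and the scale. The count of genes 2-fold apart, 1649, was 1057 with a minimum of 5 TPM and 1009 when the change was tested against 2-fold. The count of genes 2-fold higher, 743, was 618 by limma on log2(TPM + 1), 462 by the same fit with median centring and 396 when the change was tested against 2-fold. The count 2-fold lower, 906, was 530 with a minimum of 5 TPM, 584 by limma on log2(TPM + 1) and 591 by limma without a filter. The higher minimum tests fewer genes, the test against 2-fold asks for a larger change, and median centring moves the median of all genes from 0.13 to -0.03 on log2(TPM + 1). The cause of the other moves was not tested. Deviations of same-numbered C and T libraries from their segment means had correlations of 0.24, -0.15 and 0.19. With 3 libraries per segment, these cannot show whether the numbers pair the samples. A fit with the replicate number as a block called 6252 genes, 3161 higher and 3091 lower. No named gene called in the reported fit changed direction under an alternative tried, and sign changes of uncalled genes were not tracked. The balance of calls over all genes, 3240 higher and 3169 lower, did turn with the setting. It was 3092 and 3202 by DESeq2 and 2491 and 3313 with median centring, but 4110 and 2214 by limma on log2(TPM + 1). The medians or majorities of several lists also turned with the scale, as given beside those lists. Among single genes and list counts, 12899 values were classed as unchanged. These were called genes that kept direction and call, uncalled genes that stayed uncalled or changed sign, and counts within 1.5 times. Of the rest, 186 lost the call, 58 gained one and 183 counts moved by over 1.5 times. With 3 libraries per segment and a median SE of 0.10, differences well under 1.5-fold passed the test, while genes under 3 TPM were called less often.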
